A study of Mus musculus with 6 samples.

Results

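The FAT cadherins are encoded by Fat1, Fat2, Fat3 and Fat4, which are 4 of the 19938 genes named by single-symbol probe sets on the arrays. Together they were read by 18 of the 35557 probe sets: 15 for Fat3 and 1 each for Fat1, Fat2 and Fat4. The members are the probe sets whose single gene symbol in the platform's annotation is one of these names, and all 18 were among the 23410 tested probe sets. The family was chosen by the difference in Fat3 signal between fosB-null and wild-type microglia, which ranked high among genes with more signal in fosB-null cells, so that contrast is given for its members as a description, without a test.

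The arrays measured RNA from primary microglia, the resident macrophages of the brain, taken from the cerebral cortex of pups aged 2 days. Cells were grown for 10 days, collected, replated and harvested 24 h later with no further treatment. There were 3 arrays from fosB-null cultures, labelled G/G for mice homozygous for the null allele fosBG of Fosb, and 3 from C57BL/6J wild-type cultures. The mutant line was backcrossed to C57BL/6J to generation N20 and its heterozygotes were intercrossed, whereas the controls were C57BL/6J mice. By this breeding both groups are of nominal C57BL/6J background. Whether DNA flanking the mutant allele still differs between them was not tested. The allele is carried in the germline and so by every cell type of the culture, and how many pups gave 1 array is not stated in the labels.

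FAT proteins are very large cadherins of the cell surface, with long rows of extracellular cadherin repeats, a membrane-spanning segment and a cytoplasmic tail. Fat4 binds the cadherin Dachsous (Dchs1), an interaction tuned by the Golgi kinase Fjx1, and the pathway is known from planar cell polarity and from growth control through the Hippo kinases. Fat3 is best known from neurons, where it shapes the dendrites of retinal amacrine cells, Fat2 from cerebellar granule cells, and Fat1 from epithelia and muscle. Fosb encodes FosB, a subunit of the AP-1 transcription factors.

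The stretches of DNA before 1 RefSeq start of each of the 4 genes differ in their density of CG dinucleotides. They are shown because FosB is a DNA-binding factor and because the 4 starts differ in their letters. In each line the 30 bases with the most CG within the 250 bases upstream are given 5′ to 3′, with every CG in capitals, from RefSeq on GRCm38.p6.
Fat1, chr8:44949980-44950009, plus strand: CGtacactgatgctgatgCGcatgaaaaca
Fat2, chr11:55312456-55312485, minus strand: CGtccttcattgCGctattgaggaaggggg
Fat3, chr9:16502220-16502249, minus strand: CGgCGgCGgcCGcCGCGaagaagaaccCGg
Fat4, chr3:38886777-38886806, plus strand: CGttgCGCGacttacCGgccacctagagcc
The Fat3 stretch held 7 CG dinucleotides, that of Fat4 held 4, and those of Fat1 and Fat2 held 2 each. Over the whole 250 bases the counts were 27 for Fat3, 11 for Fat4, 3 for Fat2 and 2 for Fat1, against a median of 6 over 32851 RefSeq windows, and 91.4% of those windows held fewer than that of Fat3. The AP-1 letters TGANTCA, read on both strands, were in none of the 4 windows and in 6.75% of all windows. No match says only that these letters are not in this window. The windows of Fat3 and Fat4 lie inside longer RefSeq gene models, so these counts describe the DNA before 1 annotated start of each gene and not necessarily the DNA upstream of the whole gene.

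The gene altered in the mice was read by 1 Fosb probe set, with a log2 signal of 7.92 to 8.14 in wild-type and 7.82 to 8.05 in fosB-null arrays. These ranges overlap, while fosB-null minus wild-type was -0.19, -0.09 and -0.09 between the arrays numbered 1, 2 and 3. The probes of this probe set may lie outside the mutated stretch, whose extent the labels do not give. The signal is therefore no check of genotype. Array medians ran from 7.76 to 7.92.

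Fat3 had a high signal in every array. Averaged over its 15 probe sets, the log2 signal was 11.27, 11.46 and 11.36 in wild-type arrays 1, 2 and 3 and 11.54, 11.60 and 11.49 in the fosB-null arrays. All 3 fosB-null arrays lay above all 3 wild-type arrays. The group values were 11.364 ± 0.094 and 11.541 ± 0.055 (SD, n = 3 arrays each), a difference of 0.18, or 1.13-fold. Single probe sets had means from 10.61 to 12.47, which placed them between the 84.7th and the 96.6th percentile of all probe sets. Probe sets differ in how well their probes bind, so this order is one of signals and not of transcript parts. The position of each probe set along the gene is not used here.

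**Figure D1:**
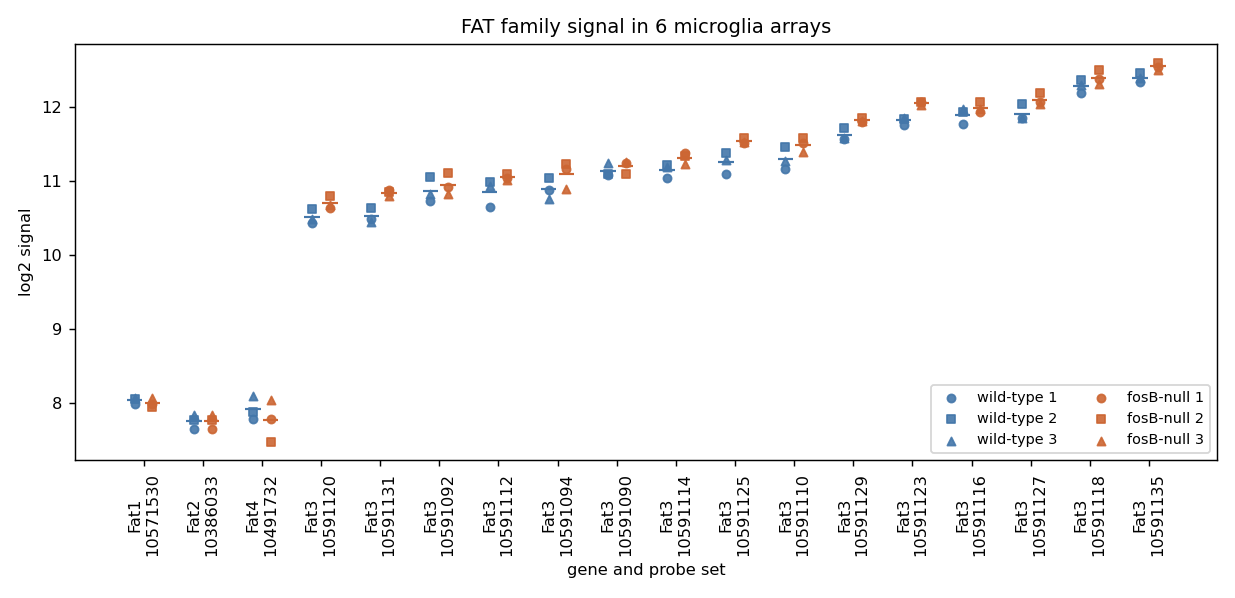
Log2 signal (vertical axis) of the 18 FAT family probe sets (horizontal axis, gene and probe set number) in 3 wild-type arrays (blue) and 3 fosB-null arrays (orange), with marker shape for the replicate number and short lines for group means. Fat1, Fat2 and Fat4 lie between 7.48 and 8.10, and all Fat3 values lie between 10.43 and 12.60.

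The probe set with the largest difference was 10591131. Its log2 signal was 10.49, 10.64 and 10.45 in wild-type arrays and 10.88, 10.85 and 10.80 in fosB-null arrays. The groups did not overlap, and the fosB-null arrays lay closer together than the wild-type arrays. The difference was 0.32 with a standard error of 0.08, or 1.24-fold, and was 0.39, 0.21 and 0.35 in pairs 1, 2 and 3, where a pair is the wild-type and the fosB-null array with the same number.

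Probe set 10591125 followed. Its signal was 11.10, 11.38 and 11.29 in wild-type arrays and 11.51, 11.58 and 11.53 in fosB-null arrays, without overlap. The difference was 0.28 (standard error 0.09), and the lowest array of the 6 was wild-type 1. For 10591123 the wild-type values of 11.77, 11.85 and 11.86 and the fosB-null values of 12.07, 12.07 and 12.03 were both tightly grouped. Its difference was 0.23 (standard error 0.07).

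The brightest Fat3 probe set, 10591135, read 12.33, 12.46 and 12.39 in wild-type arrays and 12.55, 12.60 and 12.51 in fosB-null ones. The groups were again apart, by a smaller difference of 0.15 (standard error 0.07). The dimmest, 10591120, read 10.43, 10.62 and 10.49 against 10.64, 10.80 and 10.68. Its difference of 0.20 (standard error 0.08) was nearly the same in every pair, at 0.21, 0.18 and 0.20.

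The 3 smallest differences came from probe sets whose groups overlapped. Probe set 10591090 had the smallest difference, 0.06 (standard error 0.08), from 11.08, 11.09 and 11.25 in wild-type arrays and 11.25, 11.10 and 11.26 in fosB-null ones. Wild-type array 3 lay above fosB-null array 2 there. For 10591092 the values were 10.73, 11.06 and 10.83 against 10.92, 11.11 and 10.83, a difference of 0.08 (standard error 0.12) with an exact tie in pair 3. The third of the smallest, 10591116, read 11.77, 11.93 and 11.97 against 11.94, 12.06 and 11.97. It also held an exact tie in pair 3, and its difference was 0.10 (standard error 0.08).

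Of the 7 remaining Fat3 probe sets, 10591129, 10591127, 10591112 and 10591114 had groups apart, with differences of 0.19, 0.19, 0.19 and 0.17. For 10591129 the wild-type values of 11.58, 11.72 and 11.58 lay below fosB-null values of 11.80, 11.85 and 11.81. In 10591127 the gap was narrow: the highest wild-type value was 12.04, and the lowest fosB-null value, also 12.04 after rounding, was only just above it. For 10591112 the standard error was 0.10, and pair 1 at 0.38 was far above pairs 2 and 3 at 0.10 and 0.09. The groups overlapped for 10591094, 10591110 and 10591118, which differed by 0.20, 0.19 and 0.11 and were higher in fosB-null arrays in every pair.

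Across the 15 probe sets the difference was above 0 in all 15, with a median of 0.19 and a range of 0.06 to 0.32. It was under 0.1 in 3 probe sets, between 0.1 and 0.2 in 8 and above 0.2 in 4. The median over all tested probe sets was 0.00, and 30.9% of them had a higher mean in fosB-null arrays. Among the 3313 tested probe sets with a mean in the range of the Fat3 probe sets this share was 36.0%. The groups did not overlap in 9 of the 15, where 0.41% of all tested probe sets were non-overlapping and higher in fosB-null arrays. In the Fat3 range 1.09% were. In all 3 pairs 13 of the 15 were higher, against 2.2% of all tested probe sets and 5.64% of those in the Fat3 range. A probe set tied in any pair can be neither without overlap nor higher in all 3 pairs. Such ties were in 85% of all tested probe sets, in 65.0% of those in the Fat3 range and in 2 of the 15. The ties therefore hold these background shares down. The Fat3 counts come from the contrast that chose the gene. Its 15 probe sets read transcripts of 1 gene in the same 6 RNA samples, so they are not 15 observations of the genotypes. A probe set's difference was only weakly related to its level (Pearson r = -0.24, Spearman rho = -0.28, across 15 probe sets of the same arrays).

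**Figure D2:**
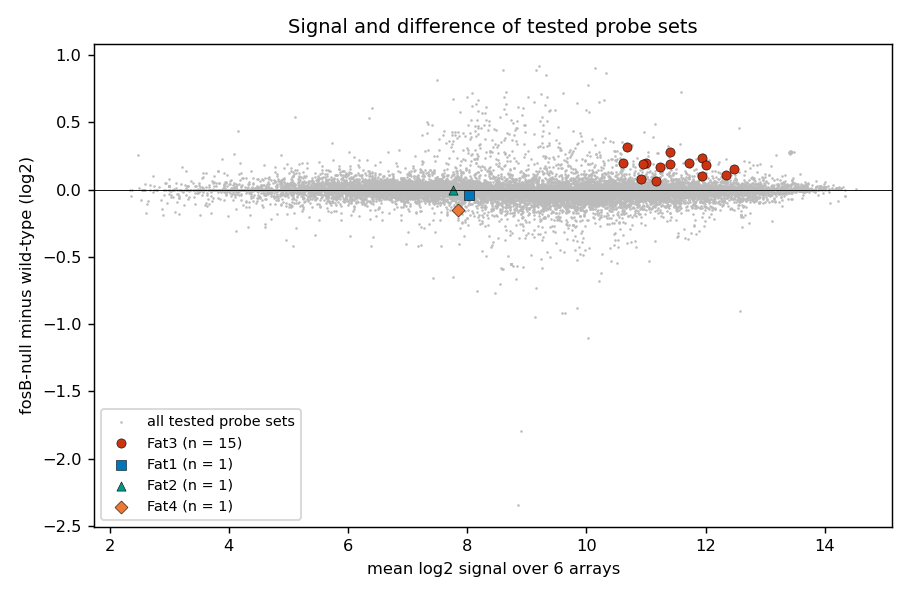
Difference between fosB-null and wild-type arrays (vertical axis, log2) against mean log2 signal over the 6 arrays (horizontal axis) for the 23410 tested probe sets (grey), with Fat3, Fat1, Fat2 and Fat4 coloured. The 15 Fat3 points lie above 0, from 0.06 to 0.32, and the 3 others at or below 0.

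The 3 pairs differed in size. The median Fat3 difference was 0.23 in pair 1, 0.13 in pair 2 and 0.12 in pair 3, and 14 of the 15 probe sets had their largest difference in pair 1. Wild-type array 1 gave the lowest wild-type value in 13 probe sets, and wild-type array 2 the highest in 12. Among fosB-null arrays, array 2 gave the highest value in 12. Without wild-type replicate 1 the mean difference over the 15 probe sets was 0.13, all 15 stayed above 0, and in 6 the difference shrank by over 1.5 times. Without fosB-null replicate 2 the mean was 0.15, 4 shrank by over 1.5 times and 14 stayed above 0.

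Exact ties touch the family unevenly. Arrays with the same number held identical values in 45.2% to 51.3% of all probe sets, and arrays with different numbers in at most 0.00844%. Of the tested probe sets 85% were tied in at least 1 pair and 27.8% in all 3. Among probe sets with a mean in the range of the Fat3 probe sets 65.0% were tied in at least 1 pair, and 2 of the 15 for Fat3 were. A difference of 0 from such a tie is not a measurement of equality.

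**Figure D3:**
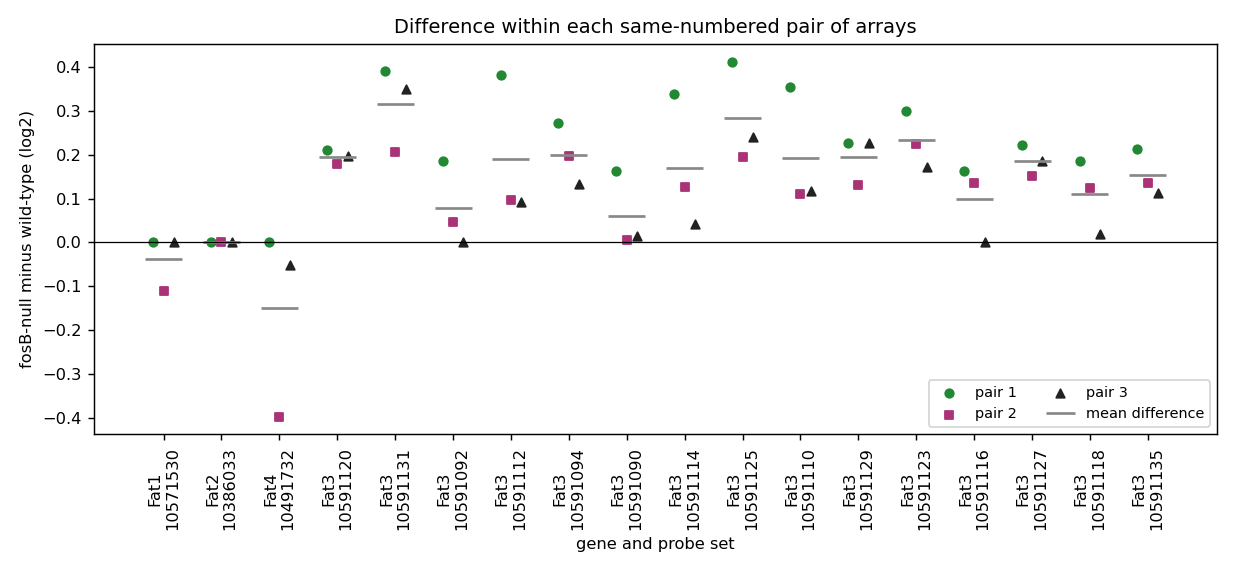
Difference between the fosB-null and the wild-type array of each pair (vertical axis, log2) for the 18 family probe sets (horizontal axis), with a marker for each pair and a grey line at the mean. Pair 1 is the largest for 14 of the 15 Fat3 probe sets, and all 3 markers lie at 0 for Fat2.

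The other 3 family members had signals near the middle of the arrays, and no direction is given for them. Fat1, in epithelia a regulator of actin at cell contacts, read 7.99, 8.06 and 8.08 in wild-type arrays and 7.99, 7.95 and 8.08 in fosB-null ones. Pairs 1 and 3 were tied, so its difference of -0.04 (standard error 0.07) came from pair 2 alone, and the groups overlapped.

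Fat2 read 7.65, 7.77 and 7.84 in both groups. It was exactly tied in all 3 pairs, and no difference can be read from it.

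Fat4, the receptor for Dachsous, read 7.79, 7.88 and 8.10 in wild-type arrays and 7.79, 7.48 and 8.05 in fosB-null ones. The groups overlapped, pair 1 was tied, and the difference of -0.15 (standard error 0.16) rested mostly on pair 2, at -0.40. Without fosB-null replicate 2 it was -0.004. The means of Fat1, Fat2 and Fat4 lay at the 53.4th, 48.6th and 50.4th percentile of all probe sets, and their order cannot be taken as one of transcripts.

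The partners and pathway genes of the family were compared in the same fit, in which 1 of 23410 probe sets, or 0.00427%, passed the adjusted threshold of 0.05. It reads C5ar2. Of 102 measured genes in 6 lists, limma called 0 in either direction, and 1 gene, Birc5, reached an unadjusted p under 0.05, as did 0.722% of all tested probe sets. With the replicate block 0 were called and 2 others, Vasp and Taok1, reached an unadjusted p under 0.05, against 2.31% of all. Of the 102 genes 21 had a higher mean in fosB-null arrays, 42 a lower one and 39 were tied in all pairs, and their median difference was 0.00, as over all tested probe sets.

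Among ligands and partners, 20 of 22 were measured, with 7 higher, 9 lower and 4 tied. Dchs1, the Dachsous ligand, read 7.80, 8.06 and 7.77 in wild-type arrays and 7.80, 8.06 and 7.74 in fosB-null ones, with ties in pairs 1 and 2. Fjx1, the kinase that acts on FAT and Dachsous cadherins, read 6.72, 6.76 and 6.42 in both groups and was tied throughout. Dchs2 was not analysed here. The WAVE complex and Ena/VASP proteins link cell surface receptors to actin. Of them Cyfip2 differed by 0.10 (standard error 0.11) and Vasp by 0.05 (0.08). Vasp was higher in every pair, at 0.06, 0.06 and 0.03. With the replicate block in limma its standard error was 0.007 and its adjusted p 0.674. The place of Vasp relative to Fosb in the genome was not examined. Atn1, a transcriptional corepressor that binds FAT tails, differed by -0.06 (0.07), and Lix1 by -0.05 (0.07) with 2 pairs tied.

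The Hippo kinases and their effectors YAP, TAZ and TEAD had 5 of 21 measured genes higher, 6 lower and 10 tied. Taok1, an upstream kinase, differed by 0.07 (standard error 0.07), Vgll4, a TEAD cofactor, by -0.06 (0.07), the kinase Lats2 by -0.07 (0.09) and the angiomotin gene Amotl2 by 0.06 (0.08). Each is smaller than its standard error in the fit without the block. With the replicate block in limma the standard error of Taok1 was 0.02 and its adjusted p 0.674, and it was higher in all 3 pairs.

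Of 10 targets of YAP and TEAD, 4 were higher, 3 lower and 3 tied. Birc5, which encodes survivin and is also a mitotic gene, read 7.76, 7.75 and 8.15 in wild-type arrays and 8.23, 8.74 and 8.11 in fosB-null ones. Its difference of 0.47 (standard error 0.19) came from pairs 1 and 2, at 0.47 and 0.99, while pair 3 was at -0.05, and in limma its adjusted p was 1. Nuak2 differed by -0.11 (0.09), Ajuba by -0.10 (0.11) and Axl by 0.17 (0.19).

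Planar cell polarity genes were higher in 2, lower in 11 and tied in 2 of 15, with a median of -0.01. The Dishevelled genes Dvl3 and Dvl1 each differed by -0.05 (standard errors 0.07 and 0.09), Prickle1 by -0.04 (0.07) and Ror2 by 0.03 (0.09).

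Other cadherins and protocadherins were mostly tied: 19 of 29 in all pairs, with 2 higher and 8 lower. Cdh3 differed by -0.06 (standard error 0.08), Pcdh7 by -0.07 (0.14), Cdh4 by -0.02 (0.07) and Pcdh8 by -0.02 (0.09).

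Catenins, which bind the tails of classical cadherins, had 1 of 7 higher, 5 lower and 1 tied. Jup, or plakoglobin, differed by -0.25 (standard error 0.15), with a tie in pair 1 and differences of -0.25 and -0.50 in pairs 2 and 3. Ctnnd1 differed by 0.06 (0.08), Ctnnb1 by -0.05 (0.10) and Ctnna1 by -0.03 (0.06). Groups were without overlap in 0 of the 102 genes, and in 1.12% of all tested probe sets in either direction.

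**Figure D4:**
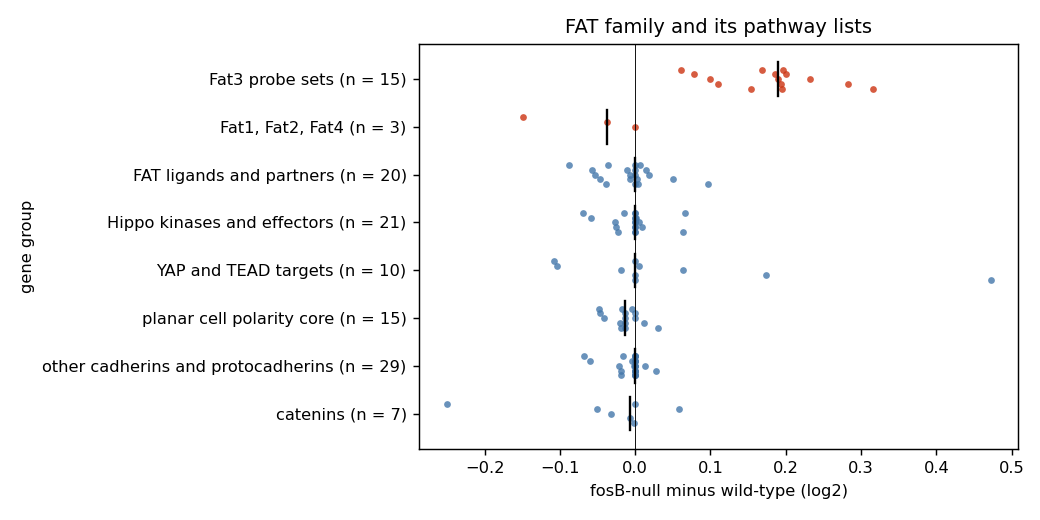
Difference between fosB-null and wild-type arrays (horizontal axis, log2) for each Fat3 probe set, for Fat1, Fat2 and Fat4, and for each measured gene of the 6 pathway lists (vertical axis), with a black bar at the median of each row. The Fat3 points have a median of 0.19 and the list medians lie between -0.01 and 0.00.

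Markers of the cells a cortical culture can hold were read beside Fat3. Of 9 measured microglia markers, the mean per array ran from 11.53 to 11.71 in wild-type arrays and from 11.60 to 11.72 in fosB-null ones. Trem2, Csf1r, Cx3cr1 and C1qa were above the 98th percentile of all probe sets, and P2ry12 was the dimmest, at the 64.8th. Of the 9, 8 had a higher mean in fosB-null arrays and 1 a lower one, with differences from -0.01 to 0.09.

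Fat3 is known from neurons, and markers of neurons were dim. Their list mean per array ran from 7.32 to 7.39 in wild-type arrays and from 7.32 to 7.38 in fosB-null ones, and Syp, the brightest of 8, lay at the 51.0th percentile. Of the 8, 3 were higher in fosB-null arrays, 4 lower and 1 tied, with differences from -0.09 to 0.09. Astrocyte markers ran from 7.25 to 7.37 in both groups, with 7 of 8 tied. No marker is at 0 on this scale, so presence or absence cannot be read from these signals.

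Oligodendrocyte lineage markers had list means per array of at most 8.29 in wild-type arrays and 8.18 in fosB-null ones. Of 7, 5 were lower, 1 higher and 1 tied. The list mean difference was -0.09, at -0.17, -0.11 and 0.02 in pairs 1, 2 and 3. Mbp, a myelin protein gene and the brightest of them at percentile 76.2, differed by -0.21 (standard error 0.09). It was lower in all 3 pairs and had groups without overlap, as did 1.12% of all tested probe sets in either direction. Cspg4 differed by -0.20 (standard error 0.13), at -0.36, -0.43 and 0.20 in the pairs. Fibroblast and mural list means ran from 7.44 to 7.60 and from 7.51 to 7.71, with 6 of 8 higher and 0 lower. In pair 3 this list was at -0.04. Postn differed by 0.26 (standard error 0.28), at 0.69, 0.67 and -0.57 in the pairs. Endothelial list means ran from 7.85 to 8.01 and from 7.86 to 8.04, with 3 of 7 higher and 3 lower. Flt1, the brightest of them, lay at percentile 83.1.

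Border macrophage markers, of macrophages at the brain's surfaces and vessels, had higher means in fosB-null arrays in 4 of 6 genes. Their list means per array ran from 10.14 to 10.36 in wild-type arrays and from 10.27 to 10.47 in fosB-null ones. The 3 pairs gave list differences of 0.13, 0.11 and 0.05. The mannose receptor gene Mrc1 differed by 0.27 (standard error 0.13), at 0.29, 0.55 and -0.03 in the pairs. Stab1 differed by 0.18 (0.10) with a tie in pair 3, while Lyve1 and Cd163 were tied in all pairs. No marker in any of these lists passed the threshold in limma, also at an unadjusted p under 0.05, and their part in the Fat3 difference was not tested. In bulk RNA, fewer cells of a type and less RNA per cell cannot be told apart.

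The signals most like that of probe set 10591131 over the 6 arrays were sought among 2830 bright probe sets without ties. The 5 highest Pearson correlations were 0.95 for Trappc6a, 0.95 for Elmo1, 0.94 for Thoc2, 0.92 for Dpysl2 and 0.91 for Etv1. Their differences between the genotypes were 0.19, 0.17, 0.12, 0.07 and 0.13. Probe set 10591131 was taken for its large genotype difference, so genes chosen for likeness to it share its direction by that choice. These differences are therefore no separate result. The places of these genes relative to Fosb in the genome were not examined. For Elmo1, an adaptor of Rac activation in engulfment, the signal was 11.63, 11.71 and 11.64 in wild-type arrays and 11.81, 11.88 and 11.78 in fosB-null ones. With 6 arrays in 3 pairs these correlations describe these arrays alone. Among the Fat3 probe sets themselves, the 105 pairwise correlations had a median of 0.82 and ran from -0.37 to 0.97.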

How the data were processed

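The authors deposited log2 values, with 1 signal for each probe set of an array. The submitters' processing notes name Affymetrix Expression Console, and the sources used here do not give its version, summary method or normalization. That the scale is log2 follows from the range of the values, 1.73 to 14.6. Per the labels' protocols 100 ng of total RNA was labelled. The number of arrays, 3 per group, limits the precision.

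Symbols came from the platform table and were updated through gene numbers in RefSeq (GRCm38.p6). A limma fit (version 3.58.1, R 4.3.3; lmFit and eBayes, two-sided) compared the groups over the 23410 probe sets with a symbol, adjusted by Benjamini-Hochberg. Differences are fosB-null minus wild-type with the moderated standard error. The brightest single-symbol probe set stands for a gene outside the family. The fit was tested on simulated data with larger shifts than those of Fat3 and without ties or pairing. That test does not bear on differences of the size seen for Fat3.

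Members, lists and rules were chosen with earlier results of these data known. Named genes are all family probe sets, Dchs1, Dchs2 and Fjx1, and the 4 members of each pathway list with the lowest unadjusted p. Also named are markers from among the dimmest, brightest and most different of each list, and the 5 genes with the signal most like Fat3. Other named markers were picked after their values were seen. Same-numbered arrays deviated together from their group means (r = 0.62, 0.56 and 0.58). These r include the exactly tied probe sets, 45.2% to 51.3% in each pair, so the ties contribute to them. Differences within pairs are given because of this shared deviation, on the evidence of the values rather than the labels. The main fit has no pair term, so the standard errors printed ignore the pairing unless the replicate block is named. The labels call the arrays biological replicates. Alternatives were other scalings, the replicate block, filters, moderation settings and leaving out each array.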

Additional observations from a re-analysis of the deposited data

How the results depend on the processing

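The count of probe sets called was 1 under quantile normalization, median centring, a filter on dim probe sets, all probe sets tested, an intensity trend and robust eBayes. It was 0 with the replicate block, ran from 1 to 2 with single arrays left out, being 2 without wild-type replicate 3, and was 169 at an unadjusted p under 0.05. The count among pathway genes was 0 in each of these fits and 1 at an unadjusted p under 0.05. For Fat3 the difference of 0.32 became 0.18 as the mean of its probe sets and 0.15 for the brightest. All 15 Fat3 probe sets stayed higher in fosB-null arrays under both scalings, and the count without overlap ran from 9 to 12 over the scalings and the arrays left out, while the share of all tested probe sets without overlap and higher ran from 0.384% with median centring to 2.02% without fosB-null replicate 3. The block cannot change a difference here, since every pair holds 1 array of each genotype, so the equal differences are no check. It did change standard errors, from 0.083 to 0.009 for 10591120 and from 0.080 to 0.081 for 10591114. The only call, that of C5ar2, was lost with the block, where its adjusted p in limma was 0.539. Its difference was still -1.79, -1.86 and -1.74 in pairs 1, 2 and 3. Its standard error was 0.074 without the block and 0.033 with it.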

Other observations

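Fat3 is 1 of 78 genes with at least 5 single-symbol probe sets on the array. In 15 of them all probe sets had a higher mean in fosB-null arrays and in 7 all had a lower one, and the median of the genes' median differences was 0.00. The median of Fat3 was 0.19, and since the gene was chosen by this difference, its place among the 78 restates that choice. The 2 other genes, named after their values were seen, had every probe set higher and some without overlap. Myo9a, an unconventional myosin, had 13 of 13 higher with a median of 0.15 and 3 without overlap. For 4932438A13Rik 19 of 19 were higher with a median of 0.14 and 3 without overlap. Of all tested probe sets 0.41% were without overlap and higher in fosB-null arrays, a share held down by the ties within pairs. For Dennd4a, also named after its values were seen, 9 of 9 were higher with a median of 0.13, and all overlapped. The ribosomal protein gene Rps12 had 14 of 14 higher with a median of 0.03. These genes were set beside Fat3 as values only, and the probe sets of each gene read the same RNA samples.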
